A study of Homo sapiens with 6 samples.

Results

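The genes described here encode the enzymes that take glucose to pyruvate and on to lactate, those of the pentose phosphate pathway, and the complex that admits pyruvate to the mitochondrial citric acid cycle. With them go 2 glucose transporters, the bifunctional enzymes that set the level of a phosphofructokinase activator, and the kinases that switch the pyruvate dehydrogenase complex off. They were chosen as a list of 35 symbols, with PKM written PKM2 in the count table. All 35 were found among the 23228 symbols there, and all 35 were among the 14504 genes that passed the filter on low counts.

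The libraries were made by a stranded poly(A) method from U2OS, an established human osteosarcoma line, grown in serum-containing medium and harvested 48 hours after lipid transfection. 3 libraries came from cells given a scrambled siRNA and 3 from cells given siRNAs against ALKBH5, an enzyme that removes the m6A methyl mark from RNA. Nothing says whether replicates were separate cultures, so each p-value here is set against a library-to-library spread that could be purely technical. Effects of losing ALKBH5 and other effects of its siRNAs cannot be told apart with these groups.

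Glycolysis splits glucose into pyruvate in the cytosol, spending ATP in its upper steps and earning ATP and NADH in its lower ones. The pentose phosphate pathway branches off at glucose 6-phosphate and supplies NADPH and ribose 5-phosphate. Pyruvate is either reduced to lactate or oxidised by the pyruvate dehydrogenase complex, and tumour cell lines typically send much of it to lactate. Most of these steps can be catalysed by several isozymes, each from its own gene, which differ in regulation and tissue distribution.

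The libraries held 18817181 to 23410007 reads assigned to genes, and levels are given as CPM, reads per 1000000 of the library size after TMM scaling, 1 CPM standing for 19.01 to 24.03 reads. ALKBH5 was measured at 138, 148 and 143 CPM with scrambled siRNA and at 19.4, 16.2 and 15.7 CPM with ALKBH5 siRNAs, 8.35-fold lower (edgeR, adjusted p = 1.6e-09). Of the uniquely placed reads, those outside genes were 15.3% ± 0.23 with scrambled siRNA and 17.9% ± 0.656 after knockdown (SD, n = 3 each), and the part of this difference in the results below was not tested. Of 8 mesenchymal and osteoblast markers, VIM, COL1A1 and SPARC were abundant in every library (lowest values 1340.3, 1482 and 1115 CPM), whereas the osteoblast genes SP7 and BGLAP stood at 0.0832 CPM or less. RUNX2 stood at 20.6 to 51.3, ALPL at 2.1 to 4.54 and COL1A2 at 0.768 to 9.7 CPM across the libraries. At an adjusted p under 0.05 (edgeR), VIM, SPARC and ALPL fell (log2 −0.39, −0.51 and −0.67). COL1A1 and RUNX2 rose (log2 0.4 and 0.73). The 8 summed to 5383 to 5609.8 CPM with scrambled siRNA and 4563 to 5341 CPM after knockdown. The 3 epithelial markers summed to 6.6 to 8.41 and 5.12 to 9.47 CPM, the leukocyte markers PTPRC and CD3E to 0.874 to 1.62 and 0.461 to 0.921 CPM, with CD3E at 0, and the 3 endothelial markers to 1.4 to 2.25 and 0.895 to 1.02 CPM. Within these low sums, by the same test, CDH1 rose (log2 1.45) and CLDN7, PTPRC and KDR fell (log2 −2.46, −1.06 and −3.81). These genes stood at 1.96 CPM or less in every library, and EPCAM and CDH5 did not pass. In RNA from whole cultures, fewer cells expressing a gene and less RNA per cell cannot be told apart.

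After knockdown 15 of the 35 genes rose and 13 fell by edgeR's quasi-likelihood test at an adjusted p under 0.05, and 7 did not pass. Of all 14504 genes tested, 61.6% passed, 30.8% as higher and 30.8% as lower. The pathway genes passed in 80.0% of cases, 42.9% as higher and 37.1% as lower, and 66.2% of the tested genes at least as abundant as the least abundant of them passed. Their median log2 fold change was 0.24, against 0.01 over all tested genes, while the median size of change regardless of direction was 0.48, against 0.46. In 25 of the 35 genes (71.4%) no knockdown library overlapped the scrambled range, as in 67.4% of all tested genes. SLC2A1, PFKFB4 and PDK1 rose by more than 2-fold and TPI1, PGD and PDK2 fell by more than 2-fold, 3 and 3 of the 35. Over all 14504 tested genes, 1542 passed as at least 2-fold higher and 1354 as at least 2-fold lower.

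**Figure D1:**
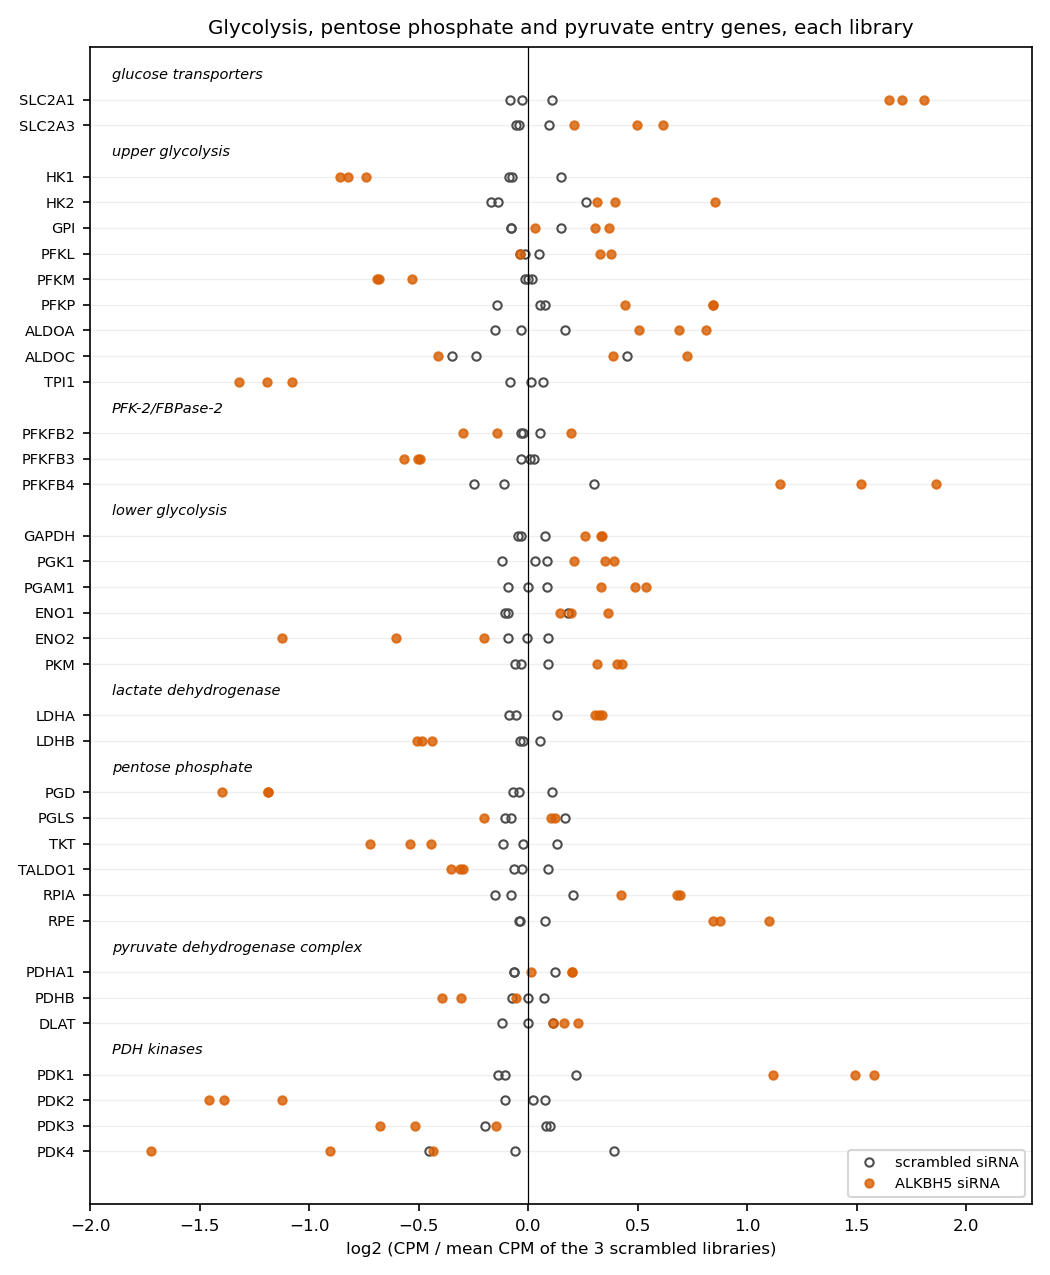
Level of each of the 35 genes in each of the 6 libraries, relative to the mean of the 3 scrambled libraries, on a log2 scale, ordered by step and with the groups in separate colours. The knockdown points of SLC2A1, PFKFB4 and PDK1 all lie beyond a log2 value of 1 and those of PDK2, PGD and TPI1 all lie below −1, while those of PDK4 and ENO2 are widely spread.

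A promoter sequence was available for 33 of the 35 genes in RefSeq windows of 300 bases around annotated starts (GRCh38.p14), SLC2A3 and PFKFB2 having none in that table. The letters ACGTG, one form of the core bound by hypoxia-inducible factors, were searched on both strands. The other form, with G in place of the leading A, was not searched. The E-box CACGTG, bound by MYC and by the carbohydrate-responsive MondoA and MLX factors, contains that form and was counted at the same place. At least 1 window held the core in 18 of the 33 genes (54.5%), against 6790 of 27305 genes (24.9%). Of their 57 windows, 22 (38.6%) held it, against 21.4% of all 35116 windows. The comparison took every gene with a window, expressed here or not, and the share among the tested genes alone was not computed. It was found in 7 of the 14 genes that rose (50.0%), in 8 of the 13 that fell (61.5%) and in 3 of the 6 that did not pass. The windows of SLC2A1 and PFKFB4, the 2 genes that rose most, did not contain ACGTG, which says nothing of the other form. Sequences from 3 genes that rose and 3 that fell are shown so that the core can be seen in both directions of change, with the core or E-box in capitals, read on the plus strand of the chromosome.
PGK1, chrX:78104034-78104081, rose: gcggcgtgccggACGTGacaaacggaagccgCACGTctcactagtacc
LDHA, chr11:18394366-18394395, rose: agactcccagcgCACGTGgagcagtctgcc
PDK1, chr2:172556061-172556089, rose: cctgctgcccgcCACGTccctCACGTacc
PDK2, chr17:50095210-50095239, fell: cccgggggaagcCACGTGccggggcggaag
PGD, chr1:10398907-10398935, fell: ggggtgggcgggCACGTttgcctcggatg
TPI1, chr12:6868076-6868104, fell: cgtgcgccgccgCACGTagccccagactc
The LDHA stretch shows only the first of 3 places with the core upstream of the start in its window, where 2 E-boxes lay. The PGK1 stretch shows the 2 upstream places of 3 in its window. The GENCODE 29 annotation places all 29 bases of the PDK1 stretch, 8 of the LDHA stretch and 5 of the TPI1 stretch in exons. A match to these letters describes the sequence and does not show that a factor binds there.

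Both glucose transporters rose. SLC2A1, which encodes GLUT1, the basal glucose carrier of most proliferating cells, was measured at 160.0, 154 and 176 CPM with scrambled siRNA and at 511, 533 and 571 CPM after knockdown. The lowest knockdown library stood far above the highest scrambled one, and the gene rose 3.29-fold (log2 fold change 1.72, SE 0.08, adjusted p = 1.2e-08). SLC2A3, encoding the high-affinity carrier GLUT3, stood at 88.5, 79.7 and 80.7 CPM and at 127, 96.0 and 117 CPM. Its groups also did not overlap, with a rise of 1.37-fold (log2 0.45, SE 0.10, adjusted p = 0.0025). Per kilobase of transcript, SLC2A1 made up 67.7% ± 2.1 of the 2 transporters with scrambled siRNA and 83.5% ± 2.3 after knockdown (SD, n = 3 each).

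Among the enzymes of upper glycolysis, 3 rose, 3 fell and 3 did not pass, and the members of a single isozyme family moved in opposite directions. HK1, the widely expressed mitochondria-bound hexokinase that traps glucose in the cell, stood at 199.8, 198 and 233 CPM with scrambled siRNA and at 119, 116 and 126 CPM after knockdown. All 3 knockdown libraries lay below the scrambled range, and HK1 fell 1.75-fold (log2 −0.80, SE 0.08, adjusted p = 5.7e-06). HK2, the insulin-responsive hexokinase that many tumours induce, stood at 34.6, 33.9 and 45.8 CPM and at 47.4, 50.2 and 68.8 CPM. The highest scrambled library was only just below the lowest knockdown library. HK2 rose 1.46-fold (log2 0.54, SE 0.16, adjusted p = 0.013), but not without scrambled library 1 (adjusted p = 0.055) or scrambled library 2 (adjusted p = 0.065).

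GPI, which isomerises glucose 6-phosphate to fructose 6-phosphate, was measured at 252, 252 and 295 CPM and at 329, 272 and 344 CPM, so knockdown library 2 fell inside the scrambled range. Its log2 fold change of 0.24 (SE 0.10) missed the threshold (adjusted p = 0.052). GPI did pass without knockdown library 2 (adjusted p = 0.0081) and without scrambled library 3 (adjusted p = 0.029).

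The 3 phosphofructokinase genes, whose products form the tetramer at the committed step of glycolysis, parted. PFKM, the muscle-type subunit, stood at 189, 187 and 191 CPM with scrambled siRNA and at 117, 118 and 131 CPM after knockdown. The groups were far apart, and PFKM fell 1.55-fold (log2 −0.63, SE 0.07, adjusted p = 1.6e-05). PFKP, the platelet-type subunit, stood at 59.5, 51.1 and 58.4 CPM and at 101, 76.4 and 101 CPM. It lay higher in every knockdown library and rose 1.65-fold (log2 0.72, SE 0.12, adjusted p = 0.00019). PFKL, the liver-type subunit, stood at 111, 113 and 118 CPM and at 148, 111 and 143 CPM. Knockdown library 2 was level with the lowest scrambled library, and the log2 fold change of 0.24 (SE 0.10) did not pass (adjusted p = 0.066), although without that library it did (adjusted p = 0.002).

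Of the aldolases, which cleave fructose 1,6-bisphosphate into triose phosphates, ALDOA stood at 554, 511 and 638 CPM and at 914, 806 and 996 CPM. All knockdown libraries were above all scrambled ones, and ALDOA rose 1.60-fold (log2 0.67, SE 0.10, adjusted p = 0.0001). ALDOC, the brain-type aldolase, was scarce at 11.5, 7.11 and 6.59 CPM and at 13.9, 6.31 and 11.0 CPM, its groups overlapped, and its log2 fold change of 0.30 (SE 0.30) did not pass (adjusted p = 0.41). TPI1, which interconverts the 2 triose phosphates and follows aldolase directly, was measured at 418, 391 and 434 CPM with scrambled siRNA and at 196, 166 and 181 CPM after knockdown. Every knockdown library lay below every scrambled one. TPI1 fell 2.29-fold (log2 −1.19, SE 0.08, adjusted p = 1.9e-07), opposite to ALDOA before it and to GAPDH after it.

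The bifunctional PFK-2/FBPase-2 enzymes make and remove fructose 2,6-bisphosphate, the strongest activator of phosphofructokinase. PFKFB4 was measured at 23.0, 15.7 and 17.3 CPM with scrambled siRNA and at 53.5, 41.4 and 67.9 CPM after knockdown. The libraries of the knockdown group varied among themselves, yet the lowest was well above the scrambled range, and PFKFB4 rose 2.90-fold (log2 1.54, SE 0.20, adjusted p = 9.6e-05). PFKFB3, whose product strongly favours synthesis of the activator, stood at 77.5, 75.3 and 78.6 CPM and at 54.5, 52.1 and 54.8 CPM. Both groups were tight and separate, with a fall of 1.43-fold (log2 −0.52, SE 0.08, adjusted p = 0.00012). PFKFB2, the heart-type enzyme, stood at 46.9, 44.5 and 44.2 CPM and at 36.8, 41.0 and 51.8 CPM, knockdown libraries lying on either side of the scrambled ones (log2 −0.07, SE 0.12, adjusted p = 0.65).

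In lower glycolysis 5 of 6 genes rose, each by less than 1.5-fold, and ENO2 fell. GAPDH, which oxidises glyceraldehyde 3-phosphate and makes NADH, stood at 3740.4, 3705 and 4044 CPM with scrambled siRNA and at 4816, 4587 and 4835 CPM after knockdown. The groups did not overlap, and GAPDH, a gene often used as a constant reference, rose 1.24-fold (log2 0.31, SE 0.07, adjusted p = 0.0022). PGK1, which makes the first ATP of the pathway, stood at 714, 619 and 687 CPM and at 884, 778 and 859 CPM, a rise of 1.25-fold without overlap (log2 0.32, SE 0.08, adjusted p = 0.0046). PGAM1, the phosphoglycerate mutase, stood at 22.4, 21.0 and 23.8 CPM and at 31.4, 28.2 and 32.5 CPM, and rose 1.37-fold (log2 0.45, SE 0.10, adjusted p = 0.0023). PKM, whose M2 splice form is the usual pyruvate kinase of tumour cells, stood at 2845, 2902 and 3165 CPM and at 3696, 3933 and 3997 CPM. It rose 1.30-fold with no overlap (log2 0.38, SE 0.07, adjusted p = 0.00067), and counts per gene do not separate its M1 and M2 forms. GENCODE 29 names 62 pseudogenes of GAPDH, 13 of PGAM1 and at least 1 for 15 of the 35 genes. Reads shared with such copies could have been lost or misplaced before counting, and the levels of these genes are uncertain to that extent.

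The 2 enolases moved apart. ENO1, the ubiquitous form, stood at 1957, 1976 and 2389.7 CPM with scrambled siRNA and at 2328, 2409.9 and 2713 CPM after knockdown. Its groups overlapped at scrambled library 3, and the rise of 1.18-fold was small (log2 0.24, SE 0.09, adjusted p = 0.044). It was lost with library totals in place of scaling factors (adjusted p = 0.12) and without scrambled library 1, scrambled library 2, knockdown library 2 or knockdown library 3 (adjusted p = 0.17, 0.17, 0.065 and 0.16). ENO2, the neuron-type enolase that is also induced in many tumours, stood at 258, 243 and 276 CPM and at 170.3, 119 and 225 CPM. The knockdown libraries spread widely but all lay below the scrambled ones, a fall of 1.51-fold (log2 −0.60, SE 0.20, adjusted p = 0.033). That call was lost without scrambled library 1, 2 or 3 or knockdown library 1 (adjusted p = 0.056, 0.054, 0.077 and 0.095) and with no filter on low counts (adjusted p = 0.11).

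The 2 lactate dehydrogenase genes changed in opposite directions. LDHA encodes the M subunit, usual in tetramers of muscle and of glycolytic tumours, and stood at 606, 593 and 689.6 CPM with scrambled siRNA and at 788, 777 and 795 CPM after knockdown. The knockdown libraries were close together and above all scrambled ones, and LDHA rose 1.25-fold (log2 0.32, SE 0.08, adjusted p = 0.0032). LDHB encodes the H subunit, usual in heart, and stood at 855, 847 and 902 CPM and at 611, 639.6 and 620.3 CPM. Its groups were far apart, with a fall of 1.39-fold (log2 −0.48, SE 0.07, adjusted p = 7.9e-05). The log2 ratio of LDHB to LDHA was 0.50, 0.51 and 0.39 with scrambled siRNA and −0.37, −0.28 and −0.36 after knockdown, a difference of −0.80 (SE 0.049). Per kilobase of transcript, LDHA made up 31.6% ± 1.0 and 44.5% ± 0.81 of the pair (SD, n = 3 each), so LDHB was the more abundant of the 2 on this scale in both groups.

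In the pentose phosphate pathway 3 genes fell, 2 rose and PGLS did not pass. PGD, 6-phosphogluconate dehydrogenase, makes NADPH in the oxidative branch and stood at 224, 228 and 253 CPM with scrambled siRNA and at 89.3, 103 and 103 CPM after knockdown. The groups were widely separated, and PGD fell 2.38-fold (log2 −1.25, SE 0.09, adjusted p = 1.9e-07). PGLS, the lactonase just before it, stood at 19.1, 23.1 and 19.5 CPM and at 22.4, 17.9 and 22.1 CPM, overlapping throughout (log2 0.02, SE 0.13, adjusted p = 0.89).

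TKT and TALDO1, the transketolase and transaldolase that return pentoses to glycolysis, both fell, and RPIA and RPE, which convert ribulose 5-phosphate to ribose 5-phosphate and xylulose 5-phosphate, both rose. TKT stood at 310.4, 330.4 and 368 CPM and at 204, 231 and 247 CPM, 1.48-fold lower without overlap (log2 −0.56, SE 0.09, adjusted p = 0.0002). TALDO1 stood at 100.4, 97.8 and 109 CPM and at 82.5, 80.2 and 83.4 CPM, 1.25-fold lower (log2 −0.32, SE 0.08, adjusted p = 0.0037). The tight TALDO1 knockdown values all lay under the scrambled range. RPE stood at 47.6, 47.7 and 51.7 CPM and at 88.0, 105 and 89.9 CPM, 1.92-fold higher (log2 0.94, SE 0.09, adjusted p = 3.4e-06). RPIA stood at 59.1, 62.1 and 75.6 CPM and at 88.0, 106 and 105 CPM, 1.52-fold higher (log2 0.60, SE 0.11, adjusted p = 0.00049). Neither isomerase nor epimerase showed overlap between the groups, and GENCODE 29 names 6 pseudogenes of RPE.

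Of the 3 subunit genes of the pyruvate dehydrogenase complex on the list, 1 fell slightly and 2 did not pass. PDHA1, its catalytic alpha subunit, stood at 92.2, 92.3 and 105 CPM with scrambled siRNA and at 97.3, 111 and 111 CPM after knockdown, with overlap (log2 0.14, SE 0.09, adjusted p = 0.18). DLAT, the acetyltransferase core, stood at 78.7, 85.3 and 92.4 CPM and at 95.7, 99.9 and 92.5 CPM, the lowest knockdown value lying just above the highest scrambled one (log2 0.17, SE 0.08, adjusted p = 0.10). PDHB, the beta subunit, stood at 99.9, 95.1 and 105 CPM and at 80.9, 96.2 and 76.2 CPM. Knockdown library 2 lay inside its scrambled range, and the 1.18-fold fall (log2 −0.24, SE 0.10, adjusted p = 0.044) was lost on leaving out scrambled library 1, 2 or 3 or knockdown library 1 or 3 (adjusted p = 0.081, 0.051, 0.11, 0.12 and 0.15).

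The genes of all 4 kinases that phosphorylate and inactivate this complex changed, PDK1 rising and the other 3 falling. PDK1 was measured at 12.9, 10.3 and 10.1 CPM with scrambled siRNA and at 31.2, 24.1 and 33.2 CPM after knockdown. Every knockdown library was far above the scrambled range, and PDK1, a known target of hypoxia-inducible factor, rose 2.65-fold (log2 1.41, SE 0.15, adjusted p = 5.8e-06). PDK2, the most widely expressed form, stood at 59.3, 57.1 and 52.3 CPM and at 25.8, 20.5 and 21.5 CPM. It was below every scrambled value in all knockdown libraries and fell 2.49-fold (log2 −1.32, SE 0.11, adjusted p = 9.2e-07).

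PDK3 stood at 17.3, 17.1 and 14.1 CPM and at 14.6, 11.3 and 10.1 CPM, with knockdown library 1 above the lowest scrambled library. Its fall of 1.35-fold (log2 −0.43, SE 0.15, adjusted p = 0.028) was lost without scrambled library 1 or 2 or knockdown library 2 or 3 (adjusted p = 0.09, 0.096, 0.087 and 0.1). PDK4, the form raised by fasting in many tissues, stood at 16.8, 12.3 and 9.36 CPM and at 9.47, 6.84 and 3.89 CPM, with a wide spread in both groups and overlap at knockdown library 1. Its fall of 1.91-fold (log2 −0.94, SE 0.31, adjusted p = 0.029) was lost without scrambled library 1 or 2 or knockdown library 2 (adjusted p = 0.083, 0.057 and 0.082) and with no filter on low counts (adjusted p = 0.065).

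Ratios between related genes of the same step, taken from the read counts of each library with 0.5 added to each count, need no scaling between libraries. Of 14 such pairs, 13 of isozymes and 1 of the subunits PDHB and PDHA1, 13 had ratios that did not overlap between the groups, the exception being ALDOC to ALDOA. Single genes did not overlap in 67.4% of all those tested, the share for other gene pairs was not computed, and the pairs are not independent, since PDK1 enters 3 of them and PFKM, PFKL, PFKP and PFKFB3 enter 2 each. The largest difference was in PDK2 to PDK1, with log2 ratios of 2.19, 2.47 and 2.37 under scrambled siRNA and −0.28, −0.24 and −0.63 after knockdown, a 6.62-fold lower ratio. PDK2 thus had more reads than PDK1 in each scrambled library and fewer in each knockdown library. The log2 ratio of PFKFB4 to PFKFB3 was −1.75, −2.26 and −2.18 and then −0.02, −0.33 and 0.31, a difference of 2.05 (SE 0.24). For HK2 to HK1 it was −2.53, −2.54 and −2.34 and then −1.32, −1.21 and −0.87, a difference of 1.34 (SE 0.15). PFKP to PFKM also differed by 1.34 (SE 0.14). With 3 libraries against 3, an exact two-sided permutation test cannot give a p under 0.1, and each of the 13 pairs reached 0.1 (0.108 after Benjamini-Hochberg adjustment over the 14), whereas ALDOC to ALDOA gave 0.5.

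**Figure D2:**
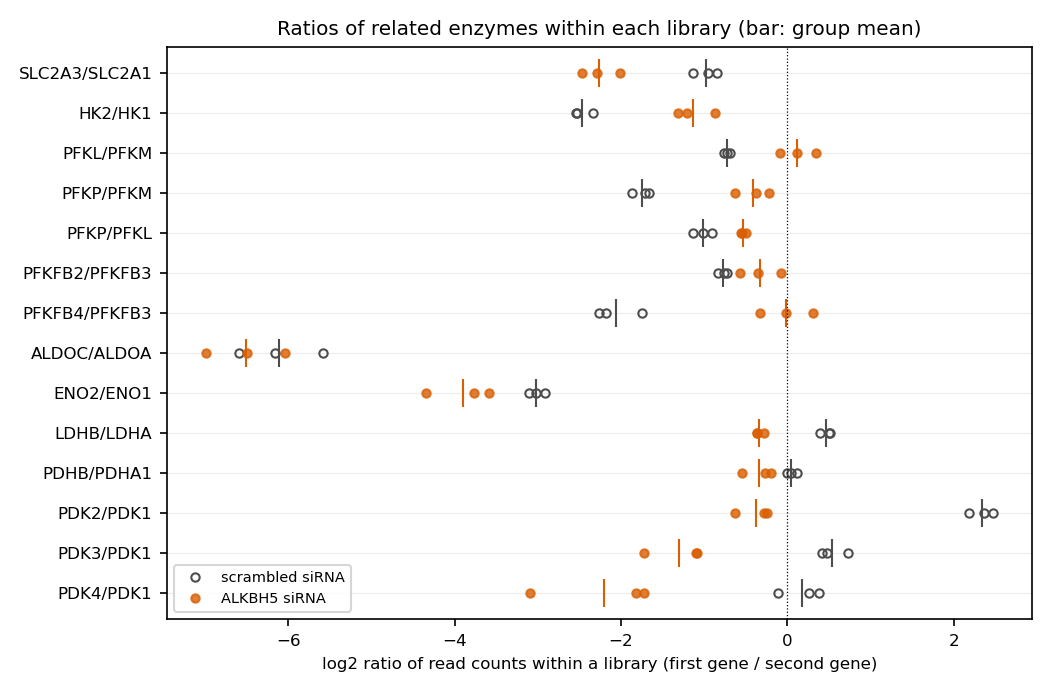
Log2 ratio of the read counts of 2 related genes of the same step in each library, for 14 pairs, with the groups in separate colours and a bar at each group mean. PDK2 to PDK1 moves from a mean of 2.34 to −0.38 and PFKFB4 to PFKFB3 from −2.06 to −0.02, while ALDOC to ALDOA overlaps.

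Summing isozymes per kilobase of transcript showed how far these shifts offset each other. Phosphofructokinase summed to 119 ± 2.79 CPM per kilobase with scrambled siRNA and 119 ± 13.2 after knockdown (SD, n = 3 each; exact permutation p = 1), while the share of PFKM was 49.3% ± 0.73 and 32.1% ± 3.2 and that of PFKP 17.8% ± 1.1 and 29.3% ± 1.3. PFKM had the largest share of the 3 with scrambled siRNA and PFKL, at 38.6% ± 2.0, after knockdown. The hexokinases summed to 64.9 ± 6.63 and 43.0 ± 3.41 CPM per kilobase, HK1 holding 89.9% ± 0.71 and then 77.8% ± 2.8. Among the PFK-2/FBPase-2 genes PFKFB3 held 59.9% ± 2.5 and then 36.5% ± 4.3, and PFKFB4 18.0% ± 2.8 and then 45.1% ± 4.8. The transporter sum, of SLC2A1 and SLC2A3 alone, was 65.8 ± 3.11 and 176 ± 8.49 CPM per kilobase, 2.67 times as high after knockdown. The aldolase sum was 358 ± 40.0 and 570.2 ± 60.6. For lactate dehydrogenase the sums were 825 ± 41.0 and 731 ± 6.97 CPM per kilobase. Enolase sums overlapped, at 990.4 ± 109.5 and 1119.8 ± 101 (exact permutation p = 0.3), and so did those of the PFK-2/FBPase-2 genes, at 28.8 ± 1.44 and 33.2 ± 4.83 (exact permutation p = 0.2). The transporter, hexokinase, aldolase and lactate dehydrogenase sums did not overlap, each with the smallest exact p of 0.1 (0.175 adjusted over the 7 sums). Lengths were those of 1 annotated transcript a gene, and a change of transcript form with knockdown was not tested.

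**Figure D3:**
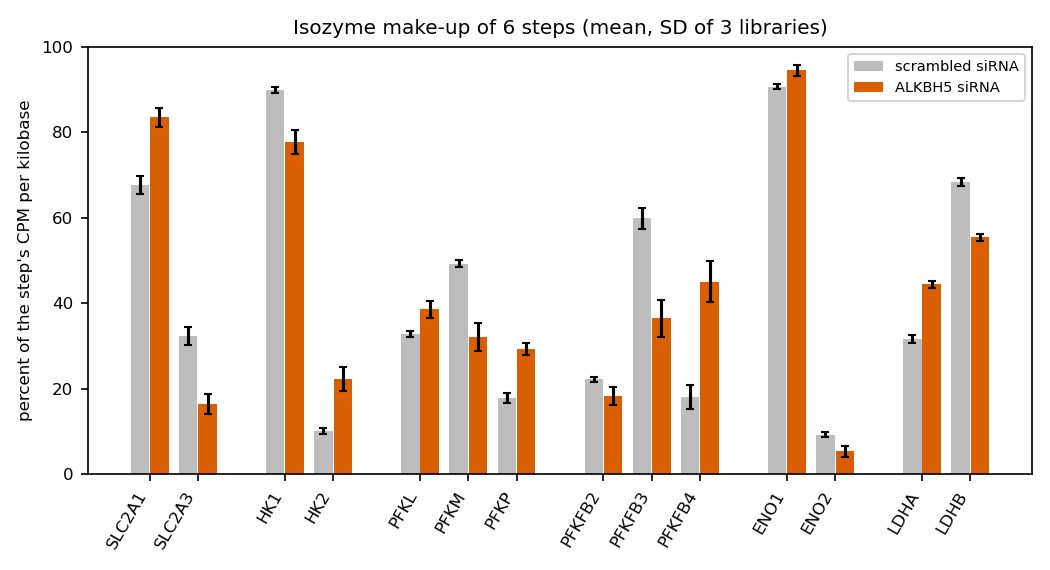
Mean share of each isozyme in its step, in percent of the summed CPM per kilobase of transcript, with bars for scrambled siRNA beside bars for ALKBH5 siRNAs and error bars of 1 SD over 3 libraries. PFKFB4 goes from 18.0% to 45.1% of its step, LDHA from 31.6% to 44.5% and PFKM from 49.3% to 32.1%.

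As a share of all reads in genes, the 35 genes took 1.47, 1.45 and 1.61% with scrambled siRNA and 1.68, 1.61 and 1.77% after knockdown. The highest scrambled and the lowest knockdown library were equal at the digits given, and the mean was 1.12 times as high after knockdown. Lower glycolysis alone, at 1.01% ± 0.059 and 1.19% ± 0.051 of reads (SD, n = 3 each), differed by 0.179 percentage points, against 0.176 for all 35 genes. With all uniquely placed reads as the denominator the difference for all 35 was 0.105 percentage points. GAPDH, PKM and ENO1 together held 59.5 to 60.5% of the reads of the 35 genes with scrambled siRNA and 63.7 to 65.2% after knockdown, so a sum over the pathway mostly follows these 3. The pentose phosphate genes went the other way, from 0.0827% ± 0.0057 to 0.0608% ± 0.0036 of reads, 0.736 times as high, and so did the 4 kinases, from 0.00985% ± 0.0011 to 0.00693% ± 0.001. Upper glycolysis, at 0.19% ± 0.013 and 0.189% ± 0.021, overlapped (exact permutation p = 1), with HK1, PFKM and TPI1 lower and ALDOA, PFKP and HK2 higher within the sum. Sums that did not overlap had an exact permutation p of 0.1 each, 0.15 when adjusted over 9 sums.

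Of 61 further genes of these pathways that were listed by function, 42 could be tested, of which 14 rose, 7 fell and 21 did not pass. That 50.0% passed is below the 61.6% of all tested genes. Of those named here, 3 serve the transport of lactate and pyruvate, and all 3 rose. BSG, basigin, the partner protein of the monocarboxylate transporters, went from 508 ± 23.2 to 892 ± 34 CPM (log2 0.81, adjusted p = 1.5e-06). The transporter gene SLC16A1, encoding MCT1, went from 130.3 ± 16.8 to 218 ± 17.5 CPM (log2 0.74, adjusted p = 4.9e-05), and the scarce SLC16A7, encoding MCT2, from 3.14 ± 0.75 to 14.3 ± 2.33 CPM (log2 2.20, adjusted p = 1.6e-06). SLC2A13, a proton-coupled inositol carrier of the glucose transporter family, went from 3.1 ± 0.421 to 11.2 ± 0.839 CPM (log2 1.84, adjusted p = 1.7e-06).

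At pyruvate entry, PDP1, a phosphatase that reverses the action of the kinases, rose from 36.2 ± 3.53 to 71.9 ± 4.76 CPM (log2 0.99, adjusted p = 4e-06). DLD, the dehydrogenase subunit that the pyruvate dehydrogenase complex shares with other complexes, rose from 74.4 ± 9.32 to 139.6 ± 3.69 CPM (log2 0.91, adjusted p = 4.9e-06). PDP1 thus rose beside PDK1 while PDK2 fell. The other phosphatase gene PDP2 and the phosphatase regulator PDPR did not pass (edgeR, log2 0.21 and 0.13, adjusted p = 0.072 and 0.15). BPGM, which makes 2,3-bisphosphoglycerate, fell from 18.7 ± 1.02 to 6.41 ± 0.839 CPM (log2 −1.54, adjusted p = 1.5e-06). PCK2, the mitochondrial enzyme that feeds phosphoenolpyruvate back from oxaloacetate, fell from 180.2 ± 16.8 to 78.8 ± 3.5 CPM (log2 −1.19, adjusted p = 2.9e-07). LDHD, a mitochondrial D-lactate dehydrogenase, passed as lower but on few reads, with 17, 16 and 17 reads under scrambled siRNA and 2, 0 and 1 after knockdown, and no fold is given.

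**Figure D4:**
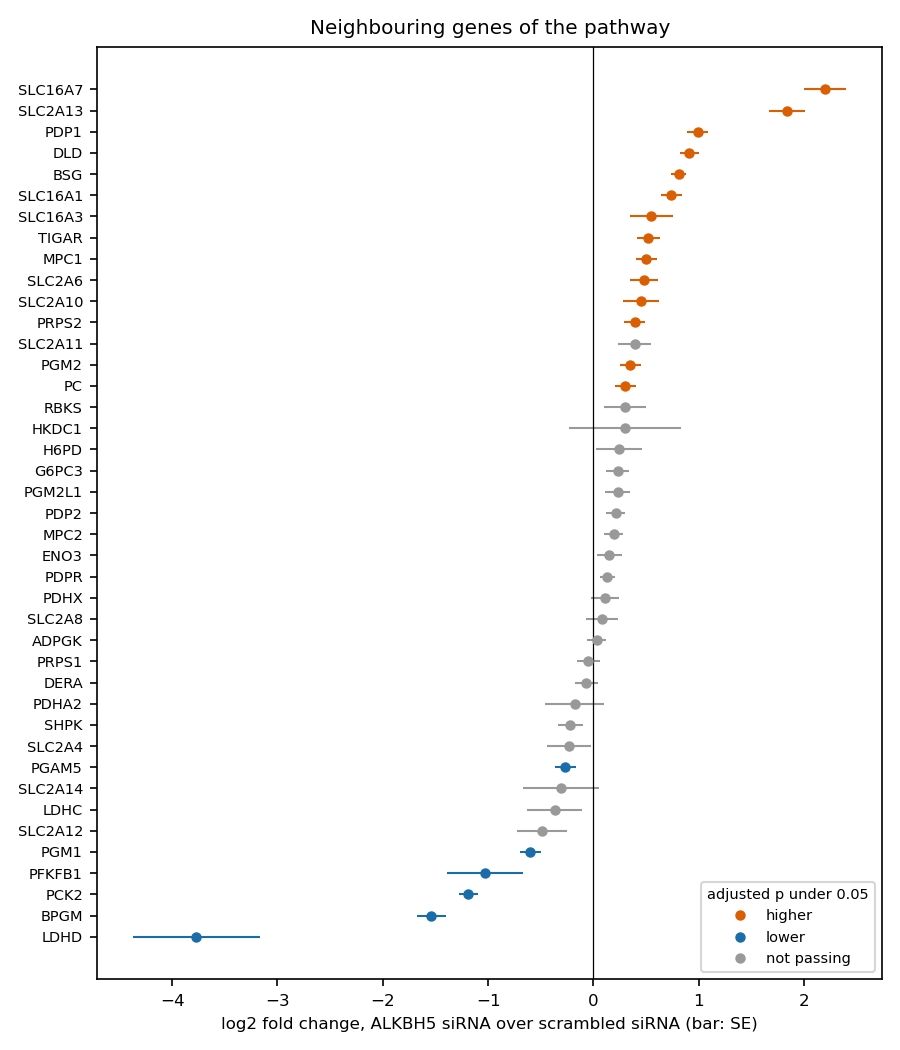
Log2 fold change, knockdown over scrambled, of 41 of the 42 further pathway genes that could be tested, with bars of 1 SE on either side and colours for genes called higher, called lower or not passing. SLC16A7 and SLC2A13 lie farthest to the right, BPGM and PCK2 lie below −1, and the point farthest to the left, LDHD, is a fitted value resting on 3 reads in the knockdown libraries.

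Genes that regulate this pathway were listed too, 14 of 15 could be tested, and 4 rose, 7 fell and 3 did not pass. That is 28.6% higher and 50.0% lower, against 30.8% and 30.8% of all tested genes. HIF1A, the oxygen-regulated subunit of hypoxia-inducible factor 1, went from 358 ± 18.9 to 683 ± 62.9 CPM (log2 0.93, adjusted p = 1.7e-06), while its partner ARNT had a log2 fold change of −0.24 and passed as lower. TXNIP, an arrestin-like protein that promotes removal of GLUT1 from the cell surface, went from 44.1 ± 7.15 to 11.2 ± 3.62 CPM (log2 −1.98, adjusted p = 2.2e-05). The splicing factors PTBP1, HNRNPA1 and HNRNPA2B1, which favour the M2 form of PKM, passed as lower with log2 fold changes of −0.29, −0.79 and −0.29. The other regulators that passed as higher were EPAS1, MLXIP and ARRDC4 (log2 0.46, 0.43 and 0.4). Those that passed as lower were PRKAA1 and SRSF3 (log2 −0.31 and −0.34). MYC, a transcriptional activator of many glycolytic genes, did not pass (log2 0.44, adjusted p = 0.07). The part of these regulators in the changes above was not tested.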

How the data were processed

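RNA-seq of 6 U2OS libraries was analysed. The deposited values are raw counts of reads per gene symbol. Per the submitters' processing notes, CASAVA 1.8.2, TopHat2, SAMtools and HTSeq were used with build hg19. For their settings, the annotation and the strand option, the sources used here give nothing. GENCODE 29 places a gene on the other strand over exons of 16 of the 35 genes, and without strand in counting such reads could not be told apart. Rows of unassigned reads were left out of library sizes. Groups came from the sample labels. The test was edgeR 4.0.16 (robust quasi-likelihood, TMM factors, filterByExpr; R 4.3.3) over 14504 genes, with Benjamini-Hochberg adjustment over all of them and a threshold of 0.05. CPM values are counts scaled by the TMM-adjusted library size, SE is the size of the log2 fold change divided by the square root of F, and isozyme ratios used counts with a pseudocount of 0.5. The procedure was tested on simulated data. limma-voom (limma 3.58.1), DESeq2 1.42.0, other scalings and filters, a 1.5-fold threshold, a replicate block and omission of each library were alternatives. Sums per kilobase and the order of libraries were added after seeing the data. So was the comparison with genes at least as abundant as the least abundant of the 35. All 35 genes are reported. Of the further pathway genes, those with the 10 smallest adjusted p-values were to be named, and 1 of them is not reported here. The genes and lists were chosen with earlier results of these data known.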

Additional observations from a re-analysis of the deposited data

How the results depend on the processing

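None of the 28 pathway genes that passed changed direction under the 15 alternatives, nor did the 10 further genes with the smallest adjusted p-values, LDHD having no value under the filter of 1 CPM in 3 libraries. Regulators and the remaining further genes were not refitted one by one. Of the 28, 8 kept their call in all 15, SLC2A1, PFKFB4, RPE and PDK1 as higher and HK1, TPI1, PGD and PDK2 as lower. Tested against a change of 1.5-fold rather than none, those 8 were the genes called, 4 higher and 4 lower in place of 15 and 13. Over all 14504 tested genes that threshold left 1891 higher and 1710 lower, in place of 4471 and 4466. The further pathway genes then gave 5 higher and 3 lower in place of 14 and 7. Apart from that threshold, the only pathway genes to lose a call were HK2, ENO1, ENO2, PDHB, PDK3 and PDK4. Leaving out each library in turn gave 13 to 16 higher and 9 to 11 lower among the 35. Among the further genes it gave 11 to 15 higher and 5 to 7 lower. Over all genes tested in those fits, 3899 to 4391 were higher and 3979 to 4325 lower, against 4471 and 4466 with every library. DESeq2 and the scaling by relative log expression each added GPI (adjusted p = 0.043 and 0.049). With all uniquely placed reads as the denominator, the difference in read share was 0.0307 rather than 0.0385 percentage points for the transporters, 0.12 rather than 0.179 for lower glycolysis and 0.105 rather than 0.176 for all 35 genes. The deviations of libraries with the same replicate number correlated positively (0.331, 0.058 and 0.351 for numbers 1, 2 and 3). Among unlike numbers, only scrambled library 2 with knockdown library 1 was positive (0.077), and the rest lay from −0.367 to −0.008. Scrambled library 2 thus did not correlate best with its own number. Nothing says whether the numbers pair the libraries, and the main test did not use them. With the replicate block 17 genes were higher and 13 lower of the 35 (GPI and PFKL added), and 18 and 8 of the further genes. Calls over all 14504 tested genes also increased with the block, to 4865 higher and 4895 lower. Depth limits LDHD, with 3 reads in the knockdown libraries, and 3 libraries a group limit every exact test to a p of 0.1.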

Other observations

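Within the groups, the pathway genes tended to be high or low in the same libraries. Of the 3 scrambled libraries, the third held the highest value in 24 of the 35 genes (68.6%), against 37.6% of all tested genes, and the second held the lowest in 19 (54.3%), against 29.6%. Among the knockdown libraries, the second was lowest in 19 genes (54.3%), against 30.7% of all tested genes, and the third was highest in 19 (54.3%), against 30.4%. The order thus matched by replicate number in both groups, the second library most often lowest and the third most often highest. Whether libraries of the same number were handled together is not stated. GPI, PFKL, ALDOA, PFKFB4 and PGK1 all had their lowest knockdown value in the second library. These counts describe libraries whose genes share depth and handling, and they were drawn up after the values had been seen.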
